A study of Mus musculus with 64 samples.

Results

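Local hopping was examined in a window of chromosome 14 from 85 to 96 Mb (mm10), where the insertions of both transposon systems are densest. PiggyBac (PB) and Sleeping Beauty (SB) are transposons that a transposase cuts out of a donor array and pastes elsewhere, PB at the motif TTAA and SB at TA. Copies often land close to the place they left, which is called local hopping, and screens for cancer genes usually leave out the donor chromosome for this reason. The window was chosen by the density of insertions on chromosome 14, and so its density as such is described here without a test. It held 26570 of the 385883 deposited lines, each line being a position, a strand and a count of reads. After moving each position to the nearest motif within 5 bp and counting a motif once per sample, 26240 of 371607 autosomal insertions lay in the window, and all 64 samples had some. Just below its lower end a 100 kb bin held 98 insertions and just above that end 75, while 170 lay in the last bin inside the upper end and 116 in the first bin outside it.

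The samples comprised tumours of 30 PB mice and 11 SB mice and tails of 12 other PB mice and 11 other SB mice, each with a mouse code of its own. The mice carried a transposase knocked in at Rosa26 (genotypes IMPB for PB and IMSB for SB), active in all tissues, and transposons of the ITP lines, and their mixed background was of C57BL/6, 129Sv and FVB. The SB mice, tails included, came from crosses of parents homozygous for Blm m3, an allele that impairs a DNA helicase and raises loss of heterozygosity, with ITP1-C or ITP2-M as the transposon line. The labels do not say which line a given mouse carried, and the Blm genotype of the PB mice is not given in the sources used here. Tumours were diffuse large B cell lymphomas, labelled by the site they were taken from (lymph nodes, spleen, mesenteric masses and single other sites), and tail was the control tissue, so that tumour state and tissue cannot be told apart in any comparison of tumours with tails. Per sample, 928 to 12005 autosomal insertions were found. The median sample had 149187 reads on them in PB tumours, 146636 in PB tails, 141976 in SB tumours and 189064 in SB tails, and PB tumour 3 had the most reads of all. The median insertion outside chromosome 14 carried 8.5 reads in the median PB tumour, 33.75 in the median PB tail, 16 in the median SB tumour and 22 in the median SB tail. PCR reads are not independent molecules, and read counts are given as counts only. The sources used here give no coordinates for the donor array, so the middle of the densest 100 kb bin, chr14:90800001-90900000, served as the centre from which distances were measured. It was the densest bin with all samples at equal weight and in PB alone. In SB alone the densest bin was the next one, chr14:90900001-91000000, and no distance was measured from that bin.

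The motifs that were hit in the most samples all lay above the centre, in a different place for each system. For PB they lay 175, 177 and 178 kb above the centre and were hit in 26, 23 and 23 of 42 samples. They are shown on the plus strand of GRCm38 with the TTAA in capitals, at chr14:91025355-91025398 (PB site A), chr14:91026526-91026569 (PB site B) and chr14:91027587-91027630 (PB site C).
PB site A: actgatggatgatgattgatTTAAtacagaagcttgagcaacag
PB site B: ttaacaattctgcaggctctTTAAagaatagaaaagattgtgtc
PB site C: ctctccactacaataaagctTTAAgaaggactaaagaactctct
For SB, with 866777 TA sites in the window compared to 83658 TTAA sites, no motif was hit in more than 6 of 22 samples. The 3 that reached 6 overlap in a single run of TA repeats 59.1 kb above the centre and are shown in the same way, with the TA that was hit in capitals, at chr14:90909065-90909106 (SB site A), chr14:90909063-90909104 (SB site B) and chr14:90909061-90909102 (SB site C).
SB site A: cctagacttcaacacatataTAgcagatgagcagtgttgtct
SB site B: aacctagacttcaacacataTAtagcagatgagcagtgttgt
SB site C: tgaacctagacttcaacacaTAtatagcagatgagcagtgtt
PB site A was hit in 18 tumours and 8 tails, and 23 of its lines were on the plus strand and 4 on the minus strand. PB site B was hit in 17 tumours and 6 tails and PB site C in 16 tumours and 7 tails. Each of the SB sites was hit in 2 tumours and 4 tails. Such sharing was common in the stretch from 50 kb below to 250 kb above the centre, where 57.6% of the PB positions were found in at least 2 samples, compared to 20.3% in the whole window and 4.30% on the other autosomes. For SB the shares were 19.2%, 7.19% and 0.572%.

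The window held a larger part of the insertions in tails than in tumours, and of all groups the SB tails had the most. In PB tumours its share of the autosomal insertions lay between 0.800% and 12.7% (median 3.89%), and in PB tails between 3.98% and 9.42% (median 7.20%). In SB tumours it lay between 4.75% and 7.24% (median 5.94%), and in SB tails between 11.0% and 16.96% (median 15.1%). The SB tumours and SB tails did not overlap, whereas the PB tumours spread over the whole range of the PB tails and beyond it on both sides. The mean was 6.04% ± 0.758 in SB tumours and 14.98% ± 1.59 in SB tails (SD, n = 11 each), and this difference passed (permutation test of the means, two-sided here and throughout, p = 2e-05, adjusted p = 0.0001 over 25 comparisons). In PB the mean was 4.50% ± 2.95 over the 30 tumours and 6.98% ± 1.502 over the 12 tails (SD), which also passed (permutation test, adjusted p = 0.022). The PB difference of -2.48 points did not pass among insertions of at least 10 reads (-1.87, adjusted p = 0.14) or among positions found in a single sample (-1.49, adjusted p = 0.063). The sample names come in 2 forms, with the system joined to the number after it or separated from it. Within the joined names the PB difference was -1.98 and within the separated ones -2.02, and neither passed (exact permutation tests, adjusted p = 0.20 and 0.36). All SB tumours have joined names, and against the 7 SB tails with joined names the SB difference was -8.79 (exact permutation test, adjusted p = 0.00063).

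Between systems, SB tails exceeded PB tails by 7.997 percentage points (permutation test, adjusted p = 0.0001). SB and PB tumours differed by 1.54 points, which did not pass (adjusted p = 0.15). It depended on the processing (permutation tests). The difference passed among positions of a single sample (2.48, adjusted p = 0.0020) and within joined names (1.94, adjusted p = 0.047). In a window of 2 Mb on either side of the centre it was -0.416 (adjusted p = 0.78). The difference between tumours and tails was larger for SB than for PB by 6.46 points (permutation of the tissue labels within each system, adjusted p = 0.011). This permutation takes tissue as without effect in either system, so its p does not test for equal effects that are not 0. The rest of chromosome 14 showed the same order between tissues for SB, with 18.3% ± 3.25 of the insertions in tumours and 26.4% ± 2.48 in tails (SD, n = 11 each), while PB had 5.73% ± 1.37 and 6.62% ± 1.01 there. In 29 of 30 PB tumours, all 12 PB tails, 9 of 11 SB tumours and all 11 SB tails the megabase with the most insertions of the autosomes lay inside the window, in 1 of these SB tumours tied with a megabase outside it. The exceptions were PB tumour 22, with 35 insertions in a megabase of chromosome 13 compared to 19 in its fullest megabase of the window, and 2 SB tumours (5 and 8) whose fullest megabase was elsewhere on chromosome 14.

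**Figure D1:**
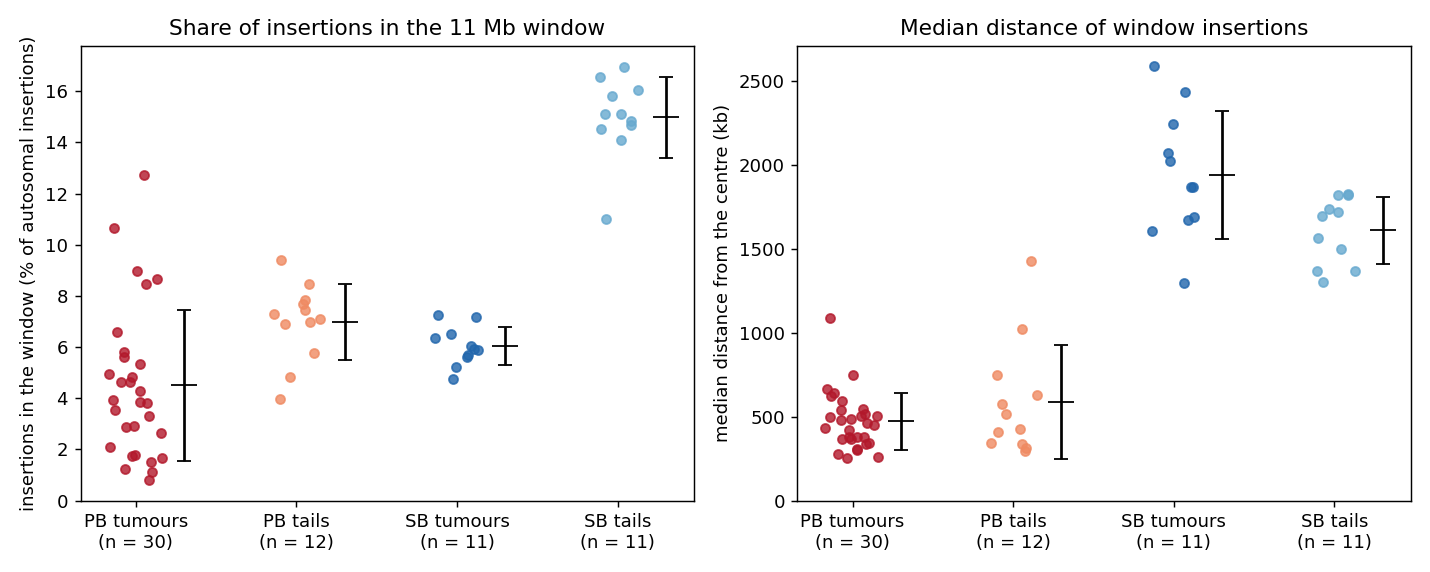
Left, percent of each sample's autosomal insertions that lie in the window, right, median distance in kb of its window insertions from the centre, with 1 point per sample and bars for the mean and SD of a group. SB tails stand above all SB tumours in the left panel, and in the right panel all SB samples lie further from the centre than all PB samples except PB tail 8, which lies at 1425 kb among the nearest SB samples.

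PB insertions were packed close to the centre and SB insertions were spread over megabases. Per motif site, the whole window was hit 7.91 times as often as the other autosomes in PB tumours, 12.7 times in PB tails, 13.2 times in SB tumours and 42.2 times in SB tails. Single samples ranged from 1.33 to 25.1 in PB tumours, 6.90 to 17.9 in PB tails, 9.59 to 16.98 in SB tumours and 26.8 to 49.6 in SB tails. Within 50 kb above the centre the values were 163 in PB tumours and 253 in PB tails, falling to 28.4 and 50.5 between 250 and 500 kb and to 2.68 and 5.65 beyond 3 Mb. In SB tumours the same distances gave 80.9, 17.3 and 13.7, and in SB tails 269, 74.4 and 34.8. In SB tumours the value was no lower at 3 to 5 Mb above the centre than at 1 to 2 Mb (13.7 and 13.1). In SB tails it fell from 54.5 at 1 to 2 Mb to 34.8 at 3 to 5 Mb. Between the same distances below the centre, SB fell from 14.2 to 5.95 in tumours and from 46.4 to 17.4 in tails. Chromosome 14 outside the window was still hit 4.91 times as often as other autosomes in SB tumours and 9.14 times in SB tails, compared to 1.31 and 1.57 in PB tumours and tails. Below the centre the PB density fell faster, to 1.85 in tumours and 1.82 in tails between 2 and 3 Mb, and SB kept 7.90 and 21.9 there.

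**Figure D2:**
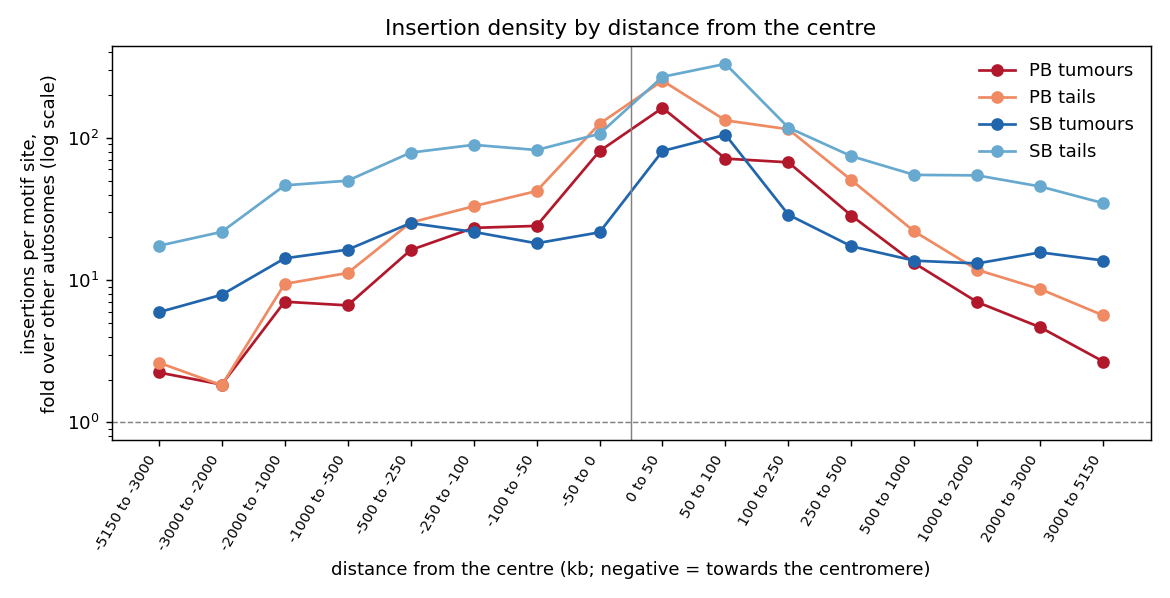
Insertions per motif site (TTAA for PB, TA for SB) as fold over the other autosomes, on a log scale, by distance from the centre in kb, with lines for the mean rate of each group. PB peaks within 50 kb above the centre and falls to 2.68 (tumours) and 5.65 (tails) beyond 3 Mb, and SB stays at 13.7 and 34.8 there.

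The median distance of an insertion from the centre put this in 1 value per sample. It lay between 251 and 1087 kb in PB tumours (median 456), 293 and 1425 kb in PB tails (median 473), 1295 and 2590.4 kb in SB tumours (median 1870) and 1304 and 1823 kb in SB tails (median 1692). No SB tumour came closer than the farthest PB tumour. The mean was 472 ± 171 kb in PB tumours (SD, n = 30), 587 ± 339 kb in PB tails (SD, n = 12), 1941 ± 382 kb in SB tumours and 1611 ± 199 kb in SB tails (SD, n = 11 each). The systems differed in tumours and in tails (permutation tests, adjusted p = 0.0001 for both). For the tails, this was lost when only positions of a single sample were kept (difference 427 kb, adjusted p = 0.13), a choice that removes 84.3% of the PB insertions and 36.5% of the SB insertions from 50 kb below to 250 kb above the centre.

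SB insertions lay farther out in tumours than in tails by 330 kb (permutation test, adjusted p = 0.034), and PB tumours and tails were not told apart (adjusted p = 0.24). These contrasts differed from each other by 445 kb (permutation of the tissue labels within each system, with the limit given for the window share, adjusted p = 0.012). The value shrank to 3.79 kb (adjusted p = 0.98) in a window of 2 Mb on either side of the centre, where the SB difference itself was 4.97 kb (adjusted p = 0.98). Without PB tails 8 and 9 and SB tail 2, which had clusters of their own, the contrasts differed by 328 kb, which did not pass (adjusted p = 0.076).

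More insertions lay above the centre than below it. The share above it was 62.9% ± 7.22 in PB tumours, 68.3% ± 5.77 in PB tails, 58.8% ± 4.59 in SB tumours and 59.5% ± 8.18 in SB tails (SD over the samples of each group). For SB tails minus PB tails the difference was -8.798 points (permutation test, adjusted p = 0.012), and the 3 other comparisons of groups did not pass (adjusted p from 0.053 to 0.89). In a window of 2 Mb on either side, SB minus PB tumours was -12.4 and passed (permutation test, adjusted p = 0.0001). PB tumours minus tails was -7.28 within joined names and -1.28 within separated ones (exact permutation tests, adjusted p = 0.0068 and 0.77). The side depends on where the centre is set. With the centre in the middle of the empty stretch described next, the difference between the tails became 0.283 points in the other direction (adjusted p = 0.998).

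A pair of features of the densest stretch were seen at a finer scale, and as they were found by looking at these insertions, they are described without a test. The first is an empty stretch, chr14:91003112-91020981, 17.87 kb long and 162 kb from the centre, that holds 155 TTAA and 1532 TA sites and no ambiguous base. Not 1 line of any of the 64 samples lay in it, on a motif or off. At the rate of the 20 kb on either side it would have held 212 insertions in PB tumours, 127 in PB tails, 19.98 in SB tumours and 102 in SB tails. It was the longest stretch of the window without a line, and the next longest, 15.565 kb at chr14:87908408-87923972, would have held 0.672, 0.448, 1.26 and 7.26 by the same count. These counts take every motif as one that an insertion could be detected at, and mappability and strain differences were not examined. No annotated gene lies in the empty stretch.

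The second feature is a pair of PB peaks, each with a steep lower edge. About 8 kb below the centre the PB insertions went from 41 in 10 kb to 318 in the next 10 kb, and these 318 came from all 42 PB samples. SB had 21 and 74 insertions in the same stretches. At the other peak, the 10 kb just past the empty stretch held 257 PB insertions, again from all 42 samples. The 10 kb just before the empty stretch held 73 from 24 samples. In SB the order was the opposite, with 9 insertions past the empty stretch and 123 before it. The PB sites A, B and C lie in the stretch just past it. In bins of 10 kb, the PB density peaked 5 kb below the centre at 356 ± 65.2 times that of the other autosomes in tumours and 491 ± 66.5 times in tails, and again 175 kb above it at 311 ± 32.9 and 430.3 ± 56.7 times (SEM over samples). At 175 kb the SB values were 10.8 ± 10.8 and 22.2 ± 8.09. The SB density peaked 55 kb above the centre, at 201 ± 37.2 times in tumours and 649 ± 54.9 times in tails, in the bin that holds the SB sites A, B and C.

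**Figure D3:**
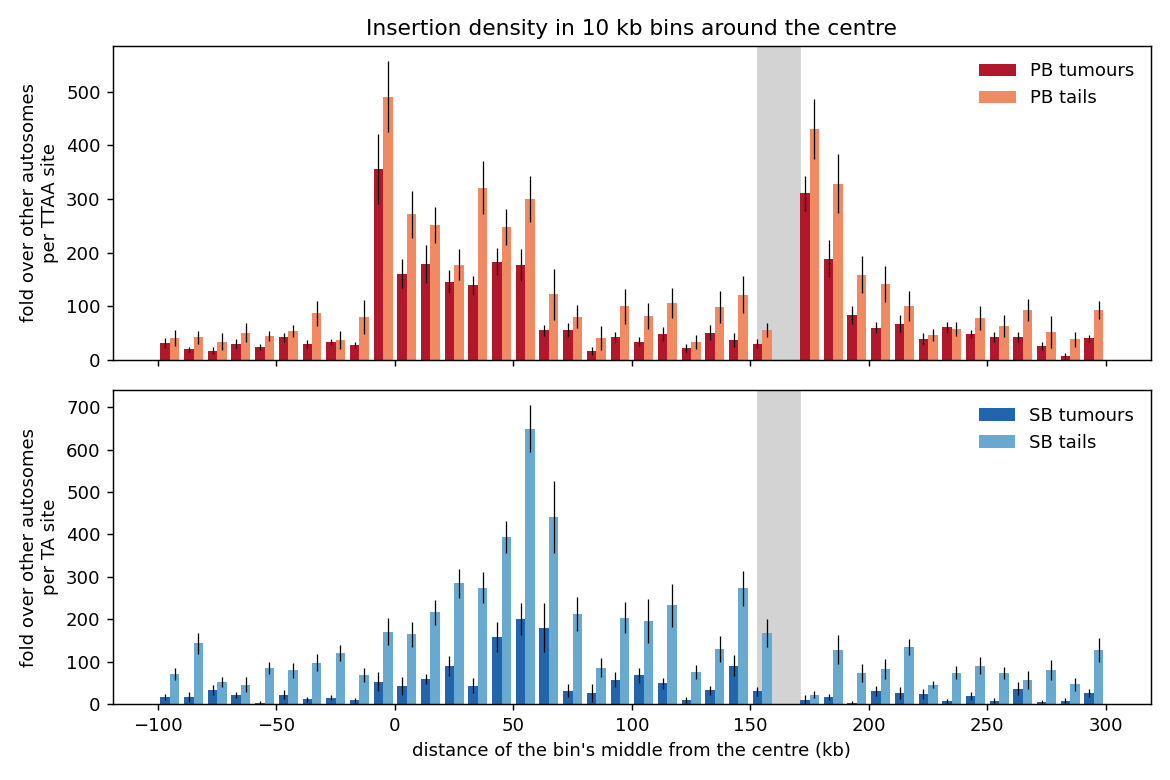
Insertions per motif site as fold over the other autosomes in bins of 10 kb from 100 kb below to 300 kb above the centre, PB above and SB below, with bars for group means and lines for the SEM over samples. The grey band is the empty stretch, with steep PB peaks 5 kb below the centre and just past the band, and the highest SB bars 55 kb above the centre.

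Over the whole window both strands were hit about equally. The plus strand held between 50.3% and 51.6% of the window insertions in the group means, and no group passed against the other autosomes of the same samples (sign-flip permutation tests, adjusted p from 0.23 to 0.46 over 16 tests, with 0 of 4 also at an unadjusted p under 0.05). At both PB peaks the strands were uneven, and in opposite ways. In the 10 kb above the lower rise, 32.2% of the 115 lines of the PB tails and 41.2% of the 211 lines of the PB tumours were on the plus strand, and the minus strand led in 12 of 12 tails and 20 of 30 tumours. In the 10 kb past the empty stretch, 67.03% of the 91 lines of the tails and 72.0% of the 182 lines of the tumours were on the plus strand, which led in 10 of 12 tails and 24 of 30 tumours. Between them the shares were 53.1% and 49.4%. In SB the first of these stretches leaned to the plus strand, with 57.8% of the 64 lines of the tails (plus led in 6 tails and minus in 1) and 8 of the 10 lines of the tumours (plus led in 6 and minus in 0). The second held 3 SB lines in tumours and 6 in tails.

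On average, insertions in the window carried somewhat more reads than those elsewhere, except in SB tumours. Separate hits of a motif in the same sample count as 1 insertion with their reads summed. The mean log2 of the reads per insertion was higher in the window than on the other autosomes by 0.27 ± 0.25 in PB tumours (26 of 30), by 0.28 ± 0.07 in PB tails (12 of 12) and by 0.14 ± 0.04 in SB tails (11 of 11), with the SD over samples. These 3 differences passed (sign-flip permutation tests, adjusted p = 8e-05, 0.0020 and 0.0026), and that of the SB tumours, 0.05 ± 0.08 and higher in 7 of 11, did not (adjusted p = 0.14). PB tumour 29 stood apart with -0.70. With insertions of at least 10 reads only, the difference of the PB tumours was 0.13 and did not pass (adjusted p = 0.18). SB tumours were below SB tails by 0.09 (permutation test, adjusted p = 0.012) and below PB tumours by 0.22 (adjusted p = 0.020), and SB tails were below PB tails by 0.14 (adjusted p = 0.0001). None of these 3 passed in every alternative. Among positions of a single sample, SB tumours minus tails was -0.072 and SB minus PB tails -0.059 (adjusted p = 0.10 for both), and with at least 10 reads SB minus PB tumours was -0.13 (adjusted p = 0.46). The excess was largest near the centre in all groups but the SB tumours. Within 250 kb it was 0.36 ± 0.39 in PB tumours, 0.41 ± 0.19 in PB tails and 0.25 ± 0.11 in SB tails, and beyond 1 Mb it was 0.19 ± 0.21, 0.11 ± 0.16 and 0.09 ± 0.07. In SB tumours the value within 250 kb was -0.08 ± 0.24, and beyond 1 Mb it was 0.08 ± 0.10, near that of the SB tails.

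The most covered insertions of a tail were often local ones. Of the 10 insertions with the most reads in each sample, 52 of 120 lay in the window in PB tails (43.3%) and 47 of 110 in SB tails (42.7%), compared to 20 of 300 in PB tumours (6.67%) and 7 of 110 in SB tumours (6.36%). Of all autosomal insertions the window held a mean of 6.98% in PB tails and 14.98% in SB tails, and 4.50% in PB tumours and 6.04% in SB tumours. The single most covered insertion was in the window in 6 of 12 PB tails, 5 of 11 SB tails, 2 of 30 PB tumours and 1 of 11 SB tumours. In PB tumour 26 it carried 8938 reads, 10.1% of the sample's autosomal reads, at -5395 kb from the centre (below it). In PB tail 11 it carried 4785 reads, 5.22% of the sample's autosomal reads, and lay 181 kb above the centre, just past the empty stretch. In PB tail 6 it carried 6570 reads and lay 36.3 kb above the centre. This pattern was noticed in the data and was not tested.

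**Figure D4:**
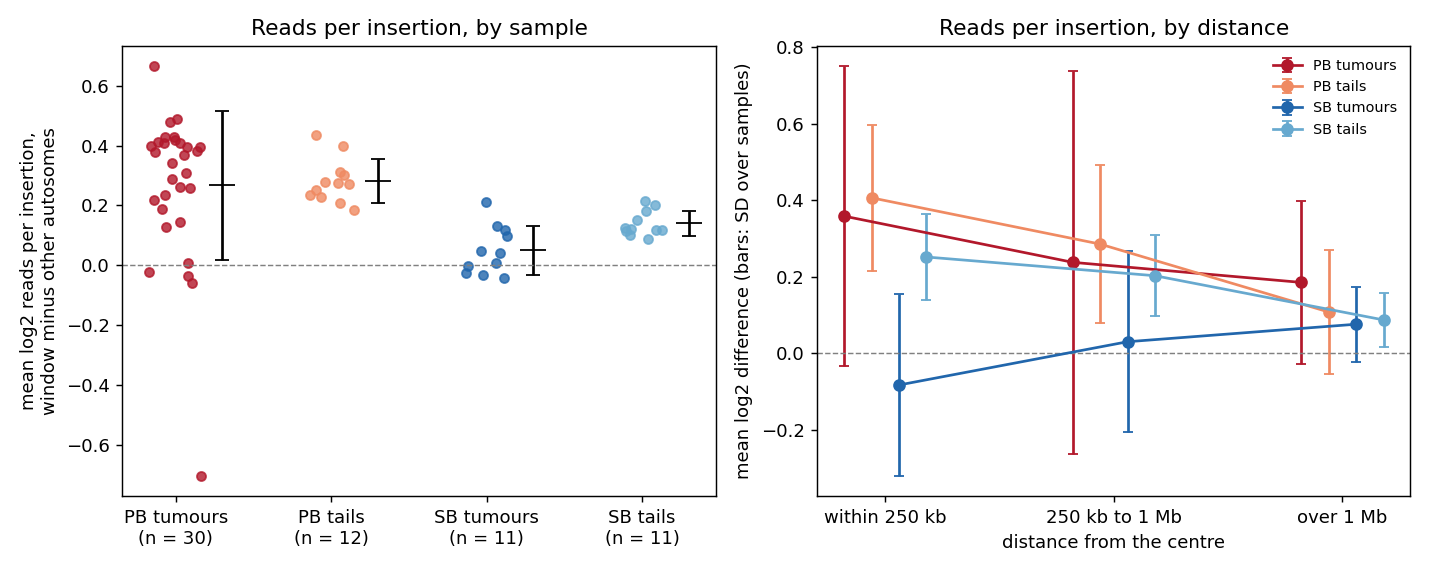
Left, mean log2 reads per insertion in the window minus that on the other autosomes, 1 point per sample with the mean and SD of each group. Right, the same difference by distance from the centre, as mean and SD over samples. The values rise from -0.08 to 0.08 with distance in SB tumours and fall in the other groups.

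In 3 tails there was a cluster that no other sample of their group had, which stood out after the data were seen. A 100 kb bin was listed if a sample had at least 20 insertions in it. Its share of the window insertions also had to be at least 5 times the mean of the others of the group. PB tumours had 57 to 380 insertions in the window, so the rule can miss clusters in tumours. Between 1 and 2 Mb below the centre, 1 PB tumour reached 70.5 times the rate of the other autosomes, where the PB tumour mean was 7.06. PB tail 8 had 54 insertions at chr14:94700001-94800000, 3.9 Mb above the centre, where no other PB tail had more than 2, and 25 in the next 100 kb. PB tail 9 had 31 at chr14:89800001-89900000, 1 Mb below the centre, where no other PB tail had more than 7. SB tail 2 had 61 at chr14:95800001-95900000, 5 Mb above the centre, where no other SB tail had more than 12. Each of these clusters holds an insertion that is among the most covered of its sample. It had 1581 reads in PB tail 8 (rank 4 of 7743 insertions), 745 in PB tail 9 (rank 3 of 4273) and 740 in SB tail 2 (rank 4 of 8045), while the median insertion of the same 3 bins had 30, 56 and 30 reads.

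**Figure D5:**
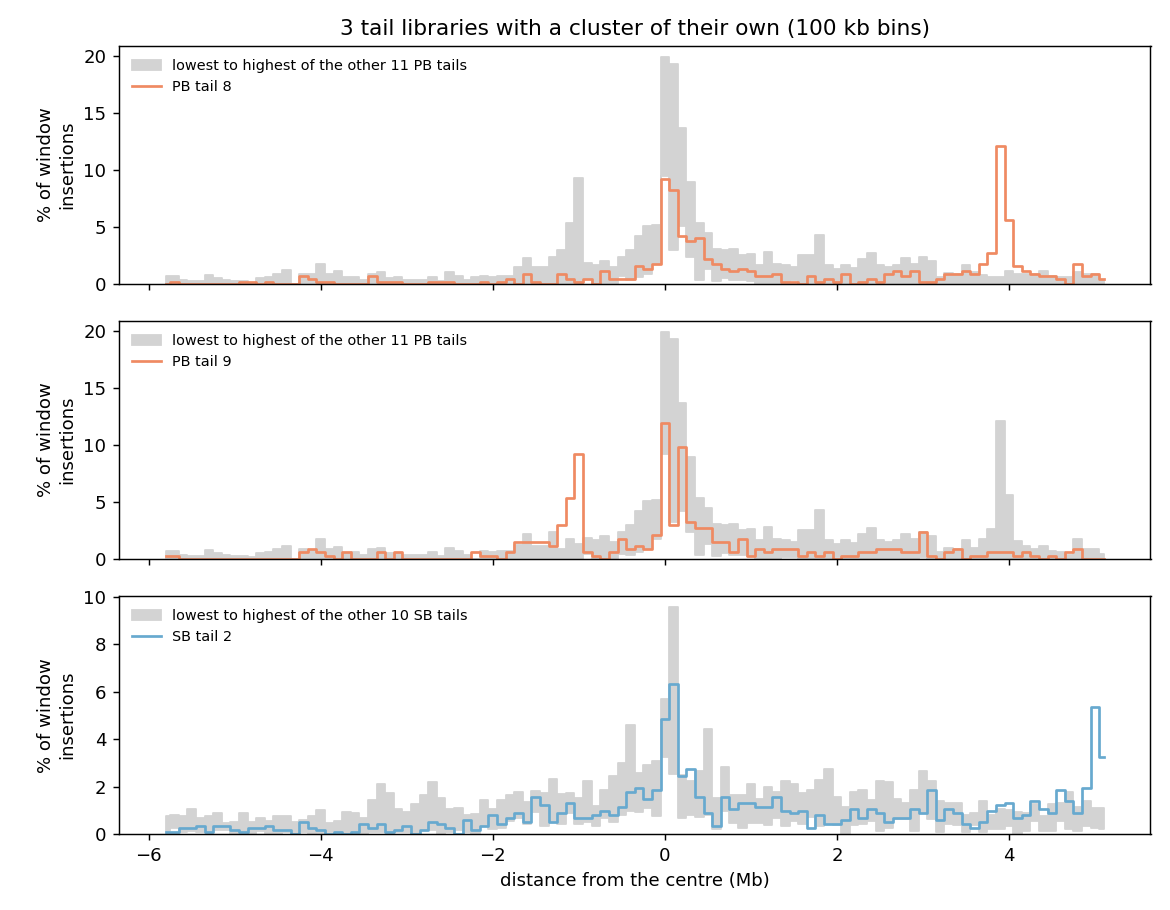
Percent of a sample's window insertions in each 100 kb bin against the distance from the centre in Mb, for PB tail 8, PB tail 9 and SB tail 2 (lines) and for the range of the other tails of the same system (grey). Each line has a second peak, 3.9 Mb above, 1 Mb below and 5 Mb above the centre.

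Bin by bin, most window bins passed in SB and few in PB, while the median change of the window bins was below that of all bins in both systems. In SB, 58 of the 110 bins of 100 kb passed with fewer insertions in tumours and none with more (edgeR quasi-likelihood test with autosomal insertions as library size, Benjamini-Hochberg adjustment over 1892 bins). Of all bins tested, 87 were lower in tumours (4.6%), a count that includes these 58. The median log2 change of the window bins was -1.30, compared to -0.25 over all bins. The smallest p was that of the bin at the centre, chr14:90800001-90900000, with 124 insertions in tumours and 575 in tails (log2 change -1.56, adjusted p = 4.5e-07), and the densest SB bin, chr14:90900001-91000000, had 191 and 784 (log2 change -1.34, adjusted p = 1.6e-06). The others of the 5 smallest lay at chr14:92200001-92300000 (28 and 172 insertions), chr14:92700001-92800000 (26 and 178) and chr14:91300001-91400000 (44 and 232). When the library size was the number of insertions in the window, which asks where within it they fell, 3 SB bins passed and all 3 were higher in tumours, at chr14:85700001-85800000, chr14:95200001-95300000 and chr14:95600001-95700000 (log2 changes 1.29, 1.05 and 0.98, edgeR adjusted p = 0.030, 0.032 and 0.039). Of all bins 19.2% were higher, a share that follows from this library size, which moves the median log2 change of all bins to 0.91.

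In PB, 5 of 109 window bins passed and all were lower in tumours, where 1.26% of all bins tested were. They were chr14:94700001-94800000 (13 insertions in tumours and 60 in tails), the 2 bins after it (16 and 32, 8 and 18), chr14:89800001-89900000 (48 and 55) and chr14:95100001-95200000 (13 and 16). Of the 60 tail insertions in the first of them, 54 were those of PB tail 8. Without the 3 tails with clusters of their own none of these 5 passed. The log2 change went from -3.14 to -0.21 in the bin from 94700001, from -2.18 to -0.23 in the next and from -1.69 to -0.70 in the bin from 89800001, while it stayed closer in the bins from 94900001 (-2.27 and -1.85, adjusted p = 0.065) and 95100001 (-1.63 and -1.47, adjusted p = 0.15). The median of the window bins was -0.68 with and without these tails, and 2 other bins passed instead, chr14:92800001-92900000 and chr14:93300001-93400000 (edgeR adjusted p = 0.041 and 0.049). With window insertions as library size the first bin alone passed (edgeR adjusted p = 0.0029), against 0.387% of all bins lower in tumours. This library size moves the median log2 change of all bins to 0.82. The densest PB bin, at the centre, had a log2 change of -0.61 and did not pass (edgeR adjusted p = 0.17), and the median of the window bins was -0.68, compared to 0.14 over all bins.

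The window is poor in genes. The RefSeq annotation has 30 genes that overlap it, of which 5 are protein-coding, 16 are long noncoding RNAs and 9 are small RNA genes. Insertions hit 21 of them, and 7 of the 9 that were not hit are shorter than 200 bp. The gene nearest to the centre, Gm33246, a long noncoding RNA at chr14:90668231-90691507, ends 0.158 Mb below it. PB insertions were in genes less often than the TTAA sites of the window, 11.7% ± 3.20 in tumours and 11.7% ± 2.37 in tails compared to 19.02% of sites, and lower in 30 of 30 and 12 of 12 samples (sign-flip permutation tests, adjusted p = 8e-05 and 0.0020). In SB it was 17.3% ± 4.07 in tumours and 15.8% ± 2.99 in tails compared to 17.96% of TA sites, and neither passed (adjusted p = 0.61 and 0.087). The SB tails were above the PB tails by 4.03 points (permutation test, adjusted p = 0.0061) and the SB tumours above the PB tumours by 5.60 points (adjusted p = 0.00042). These last 2 differences shrank to 0.0425 and 1.66 points (adjusted p = 0.99 and 0.50) among positions of a single sample. In a window of 2 Mb on either side of the centre they were 1.25 and 1.97 points (permutation tests, adjusted p = 0.033 and 0.040). The share is not weighted by distance, and no annotated gene lies within 0.158 Mb of the centre. PB insertions packed there lower the share with or without avoidance of genes, so these tests cannot show avoidance. In Pcdh9 the PB rate per site was 1.34 (tumours) and 1.33 (tails) times that of its flanks. For Tdrd3 it was 1.83 and 2.13 times, and Diaph3 also exceeded its flanks. The noncoding 4930474H20Rik, Gm33246, Gm41225 and Gm41226 lay below theirs in both tissues, and Gm33203 in tumours only. These ratios were not tested.

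Pcdh9, which encodes a protocadherin of the nervous system that joins cells to each other, took the most insertions of any gene in the window. It spans chr14:93013700-93892834 on the minus strand, 2.16 Mb above the centre. Tumours had 2 to 36 PB insertions in it (median 10, 380 in all) and tails 7 to 46 (median 21, 268 in all). SB tumours had 4 to 72 (median 27, 355 in all) and SB tails 58 to 281 (median 121, 1300 in all), and every sample was hit. Per site that was 5.26 times the rate of the other autosomes in PB tumours and 9.64 times in PB tails, 16.2 times in SB tumours and 50.2 times in SB tails. Against library size, Pcdh9 was lower in tumours in both systems, by a log2 change of -0.89 in PB (edgeR adjusted p = 0.015) and -1.25 in SB (edgeR adjusted p = 3.2e-08). The PB change did not pass with at least 10 reads (-0.68, edgeR adjusted p = 0.17) or within joined (-1.08, adjusted p = 0.23) or separated names (-0.32, adjusted p = 0.82). Relative to the other insertions of the window it was not told apart, at -0.25 (adjusted p = 0.57) and 0.03 (adjusted p = 0.86). Between 45.6% and 50.7% of its insertions per group were in the direction of the gene.

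Within Pcdh9, PB was concentrated at the start of the gene. The first 10 kb from its start site held 12.4 insertions per 1000 TTAA sites and sample in PB tumours and 21.1 in PB tails, compared to 1.54 and 2.73 in the rest of the gene and 5.22 and 2.90 in the 10 kb before the start. SB had 0.826 and 5.79 per 1000 TA sites there, compared to 0.440 and 1.59 in the rest and 1.40 and 4.79 in the 10 kb before the start. This stretch was singled out after the data were seen.

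Diaph3, a formin that builds actin filaments, lies at chr14:86655357-87141247, 3.71 Mb below the centre, and Tdrd3, a Tudor domain protein that binds methylated arginine, at chr14:87416178-87545508. Diaph3 had 131 insertions in PB tumours, 52 in PB tails, 45 in SB tumours and 170 in SB tails, and Tdrd3 had 40, 20, 44 and 97. Diaph3 was lower in SB tumours than in SB tails (log2 change -1.30, edgeR adjusted p = 0.0025) and Tdrd3 had a log2 change of -0.58, which did not pass (adjusted p = 0.40). In PB they had -0.33 and -0.54 (edgeR adjusted p = 0.62 and 0.51). Pcdh20, another protocadherin, had 10 insertions over all samples, and Spertl had 1, in an SB tail.

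Of the noncoding genes with the most insertions, 4930474H20Rik, at chr14:90126891-90269760, had 71 insertions in PB tumours, 51 in PB tails, 62 in SB tumours and 199 in SB tails, and Gm33246 had 42, 19, 10 and 51 in the same order. Gm41225 had 19, 8, 25 and 66, Gm41226 had 34, 12, 5 and 44, and Gm33203 had 8, 5, 16 and 50. In all, 5 of the 11 window genes tested in SB were lower in tumours and none was higher. Of all genes tested, 10 were lower (0.683%), a count that includes these 5. The 5 were Pcdh9, Diaph3, 4930474H20Rik, Gm41226 and Gm33246. Of the last 3, the log2 changes were -1.03, -2.35 and -1.66 (edgeR adjusted p = 0.017, 0.0042 and 0.040). In PB, 1 of 8 was lower, Pcdh9, where 2.05% of all genes were. Without the 3 tails with clusters 4930474H20Rik passed too (edgeR adjusted p = 0.049). With window insertions as library size none passed in either system by edgeR, with 0 of 8 and 1 of 11 at an unadjusted p under 0.05. With this library size 20.4% of all genes tested in PB and 40.2% in SB were higher in tumours. These shares follow from the library size, which moves the median log2 change of all genes to 0.96 in PB and 1.34 in SB.

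Local SB insertions of tails had the preferred bases of SB less often than those elsewhere. SB prefers TA sites with A 3 bases before the TA and T 3 bases after it, and 12.8% of the TA sites in the window and 11.2% of those on the other autosomes have both. In SB tails 49.1% ± 1.17 of the window insertions had them, compared to 55.4% ± 0.919 elsewhere, and the window was lower in 11 of 11 tails (sign-flip permutation test, adjusted p = 0.0026). Compared with chromosome 14 outside the window it was lower by 3.51 points, again in 11 of 11 tails (adjusted p = 0.0031). SB tumours had 45.5% ± 5.21 compared to 47.7% ± 1.33, a difference that did not pass (adjusted p = 0.23). In PB, 19.9% ± 3.33 of the window insertions in tumours and 20.5% ± 1.63 in tails had T 3 bases before and A 3 bases after TTAA, compared to 19.3% and 21.03% elsewhere (adjusted p = 0.40 and 0.44), with 12.2% of the TTAA sites of the window.

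Lines that no motif could be found for within 5 bp were more frequent in the window than elsewhere. They made up 1.71% of the lines in PB tumours, 1.80% in PB tails, 0.202% in SB tumours and 0.270% in SB tails, compared to 0.859%, 0.842%, 0.0798% and 0.0374% on the other autosomes. They were left out of all other counts, except that the empty stretch holds none of them either.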

How the data were processed

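Transposon junctions of 64 mouse samples were amplified by splinkerette PCR and sequenced on a MiSeq (75 bp, paired-end). The authors deposited 1 table with the position, strand and raw read count of each insertion, not normalized, on mm10. The aligner, the insertion caller and read filters are not given in the sources used here, and the lowest count of a line was 2. A further per-sample column (1 column) was not used. Each position was set to the closest motif of its system (TTAA or TA) up to 5 bp away on GRCm38 and counted once per sample, with reads summed, on the autosomes. Samples were compared by two-sided permutation tests of means (100000 resamples, smallest p 2e-05, exact with fewer than 10 samples in a group), and the window with the other autosomes by sign-flip tests. Adjusted p-values are those of Benjamini and Hochberg over 25 and 16 tests. Bins and RefSeq genes with at least 10 insertions in a system were tested over all autosomes with edgeR 4.0.16 in R 4.3.3. On simulated data with 200 features changed 4-fold, edgeR found 115 (14 false) and 180 (10 false) for PB and SB bins, and 177 (7 false) and 161 (10 false) for genes. Named were the protein-coding genes of the window and the 5 others with the most insertions, the densest bins and the called ones (the 5 smallest p), and the 3 positions per system in the most samples. The window, members and lists were chosen with earlier results of these data known. Alternatives were the read minimum, the lines as deposited, positions of a single sample, the sample names, a narrower window, the reference region, the normalization (window insertions, TMM, DESeq2 1.42.0) and the filter on low counts.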

Additional observations from a re-analysis of the deposited data

Results flagged for a closer look

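The difference between tumours and tails was flagged as unlike in the systems for 2 measures, each tested by permuting the tissue labels within a system. Such permuting takes tissue as without effect in either system, so its p does not test for equal effects that are not 0. The share of insertions in the window differed by -8.93 percentage points in SB (tumours minus tails) and by -2.48 in PB, a gap of -6.46 points (adjusted p = 0.011). The median distance from the centre differed by 330 kb in SB and by -115 kb in PB, a gap of 444.8 kb (adjusted p = 0.012). The gap in distance did not pass in 3 alternatives. It was 3.79 kb in a window of 2 Mb on either side (adjusted p = 0.98), 397 kb among positions of a single sample (adjusted p = 0.16) and 328 kb without PB tails 8 and 9 and SB tail 2 (adjusted p = 0.076). The PB difference itself was 15.6 kb in the second of these and 12.4 kb in the third. Tumours and tails came from different mice.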

How the results depend on the processing

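Of 251 alternative values of the main results, 180 kept their direction and their side of the threshold (counts: stayed within 1.5 times), 29 no longer passed, 4 newly passed, 22 changed sign and 16 were counts that moved. Of 194 for single genes and bins, 127 kept both, 42 no longer passed, 5 newly passed and 20 changed sign. A further 5, all in PB, had no adjusted p from DESeq2 and are not counted, with log2 changes of -0.20, -0.13 and -2.26 in the bins from 94700001, 94800001 and 94900001, -0.45 for Gm33203 and -0.09 for Gm41225. The cause was not tested. The difference in window share between SB tumours and SB tails passed in every alternative run. No paired analysis was possible because the replicate numbers only name the samples and no mouse gave both tumour and tail. Leaving out single samples was not run as groups hold more than 10, other than the libraries named here. Sign-flip tests on the 4 to 8 samples that most groups have in a name form can hardly pass after adjustment, so that a lost call there says little.

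With at least 10 reads, the PB window share difference was -1.87, the read difference of SB against PB tumours -0.13, that of the PB tumours against other autosomes 0.13, that of the SB tumours -0.0010, the interaction of reads 0.0049 and the gene body share of PB tumours minus tails 0.179 (0.105 with lines as deposited). Among positions of a single sample, the window share was -1.49 for PB and 2.48 for SB minus PB tumours, the median distance 15.6 kb for PB, 427 kb between tails and 397 kb for the interaction, the distal share -3.94 between tails and 2.03 between tumours, the read difference 0.046 for PB, -0.072 for SB and -0.059 between tails, and the gene body share 0.572 for PB, 0.0425 between tails and 1.66 between tumours.

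In a window of 2 Mb on either side, the window share of SB minus PB tumours was -0.416, the median distance 1.19 kb for PB, 4.97 kb for SB and 3.79 kb for the interaction, the distal share -12.4 between tumours and -1.71 for the interaction, the read difference -0.26 between tumours and the gene body share 0.254 for PB. With the centre in the empty stretch, an alternative added after the data were seen, the distal share was 0.283 between tails and 4.71 between tumours. Without PB tails 8 and 9 and SB tail 2, also added later, the median distance was 12.4 kb for PB and 328 kb for the interaction, and the distal share 0.264 for SB.

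With joined names, the window share was -1.98 for PB and 1.94 between tumours, the distal share -7.28 for PB, the gene body share 3.73 between tails and the read difference 0.0011 for PB. Against other regions it gave reads of 0.30 (PB tails) and 0.15 (SB tails), context -6.55 (SB tails) and gene body share -7.27 (PB tails). With separated names, the window share was -2.02 for PB, the distal share -8.10 between tails and the gene body share 0.672 for PB. Against other regions it gave reads of 0.16, 0.27 and 0.13 (PB tumours, PB tails, SB tails), plus strand -1.63 (PB tumours) and -1.496 (SB tails), context -0.612, 0.267 and -5.89 (PB tumours, PB tails, SB tails) and gene body share -6.63 and -7.31 (PB tumours, PB tails).

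Of the bins, 5 passed in PB and 58 in SB. In PB 1 passed with window insertions as library size, 3 with TMM, 3 with DESeq2, 0 with joined names, 1 with separated names and 2 without the libraries with clusters, and in SB 3 with window insertions. Of the genes, 1 passed in PB and 5 in SB. In PB it was 2 without the filter or without the clusters' libraries and 0 with window insertions, at least 10 reads or either name form, and in SB 0 with window insertions, 8 with DESeq2 and 1 without the filter. Window insertions as library size move the median log2 change of all bins to 0.82 in PB and 0.91 in SB, and turned the sign in PB for the bin at the centre (0.12), Diaph3 (0.64), Tdrd3 (0.29), Gm41225 (0.42), Gm41226 (0.64) and Gm33246 (0.52), and in SB for Tdrd3 (0.69), Gm33203 (0.13), Gm41225 (0.46), 4930474H20Rik (0.25) and Pcdh9 (0.035). In PB the sign of Gm41226 also turned with TMM (0.035), DESeq2 (0.16), at least 10 reads (0.21) and separated names (0.26), that of Gm33246 with separated names (0.25), that of Tdrd3 (0.10) and Gm41225 (0.25) with at least 10 reads, and that of Diaph3 (0.46) and Gm41225 (0.84) with joined names.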
